A study of Mus musculus with 5480 samples.

Results

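Forkhead genes encode transcription factors that share the forkhead DNA-binding domain, and 30 of the 18072 genes in the deposited count table carried a forkhead symbol (Fox, a letter from a to s, and a number). All 30 were taken as members by that symbol alone, so no measured value chose them. They were followed across the 16 cell subtypes named by the study's authors, across 4 ages in normal air and under hyperoxia, in mesenchymal cells sorted from the distal lung of 10 mice and sequenced cell by cell from plates with Tn5 transposase. Each of 5 groups held 1 female and 1 male mouse by the labels. In normal air the ages were embryonic day 18.5, called E18.5, then P1, P7 and P21, where P counts days after birth. The fifth group was taken at P7 under hyperoxia, which means that it had breathed oxygen-enriched air. Strain, genotype, oxygen level and the hours of exposure were not given in the sources used here. Comparisons were made between mice, with 2 in each group.

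In the lung, the forkhead family marks both epithelium and mesenchyme. FoxA factors and Foxj1 belong to the airway epithelium, Foxj1 as the master regulator of motile cilia. Foxf1 and Foxf2 are mesenchymal factors downstream of Hedgehog signals from the epithelium, and loss of FOXF1 in humans disturbs the alveolar capillaries. FoxO factors are held in the cytoplasm by insulin and growth factor signals through Akt, and enter the nucleus under starvation and oxidative stress. Foxm1 drives the genes of mitosis, FoxP factors act mainly as repressors in lung development, and Foxc1 and Foxc2 act in the walls of blood and lymph vessels.

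The table held 5480 cells, 311 to 633 a mouse, with 39358 to 5177020 reads a cell and a median of 774305. Mouse totals ran from 294154721 to 671766116 reads, and the 30 forkhead genes took 0.0821% of all reads. The labelled subtypes mostly fitted their defining markers: the alveolar, adventitial, vascular smooth muscle, pericyte and striated muscle lists were each highest in the subtype of that name or its later form. The myofibroblast list was highest in early airway smooth muscle and the airway smooth muscle list in vascular smooth muscle. Hhip stood in both the myofibroblast and airway lists, and Acta2 and Myh11 in both the airway and vascular lists. These sums therefore could not fully set those 3 subtypes apart. Markers of other cells were low but present in every mouse, with a summed level of 14.0 to 81.2 CPM (reads per 1000000 reads of a sum) for 8 epithelial genes, 3.97 to 36.3 for 6 endothelial genes and 3.57 to 52.4 for 6 immune genes. The 4 genes of ciliated cells summed to 38.0 to 405 CPM. Their sum was highest in pericytes, where 2 of the 4 genes had no read. The 4 mesothelial genes summed to 126 and 145 CPM in the hyperoxia mice, against 0.0476 to 55.6 in the others. Of the 1060 hyperoxia cells, 1051 came from sequencing runs that held no cell in air and 9, of the male mouse's CD31 sort, shared a run with 18 cells in air, so beyond those 9 cells hyperoxia and run cannot be told apart. The titles put 69 cells in a CD31 sort and 2 in a CD45 sort, and all were kept.

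Per kilobase of exon, the scale on which genes can be ranked, Foxf1 was the highest forkhead gene at 55.9 CPM per kb and Foxf2 was next at 45.4 CPM per kb. Foxs1 followed at 16.9, Foxn3 at 13.8, Foxp1 at 9.63, Foxo3 at 8.04 and Foxl1 at 5.44 CPM per kb. Foxo1 and Foxn2 stood at 4.41 and 4.34 CPM per kb, closer than the spread of either between mice. The remaining members ran from 3.70 for Foxj2 down to 0.00310 CPM per kb for Foxd4. Without the length correction the long transcript of Foxn3 came first, with a mean over the 10 mice of 158 CPM (SD 33.7, n = 10), against 135 CPM (SD 30.2, n = 10) for Foxf1. A cell held reads of 5 forkhead genes at the median, and of 0 to 16 at the extremes. The summed level of the 30 genes was 624 to 717 CPM in the 4 mice of E18.5 and P1, 920 and 936 CPM at P7 in normal air, 774 and 905 CPM at P21, and 1013 and 1016 CPM in hyperoxia.

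Of the 30 members, 17 reached a mean of 5 CPM over the mice, and 13 stayed below it. Between subtypes their values are a description with no test, because the authors named the subtypes from the expression of the same cells. A subtype mean is over the mice with at least 10 cells of that subtype, and its SD is the spread between those mice.

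**Figure D1:**
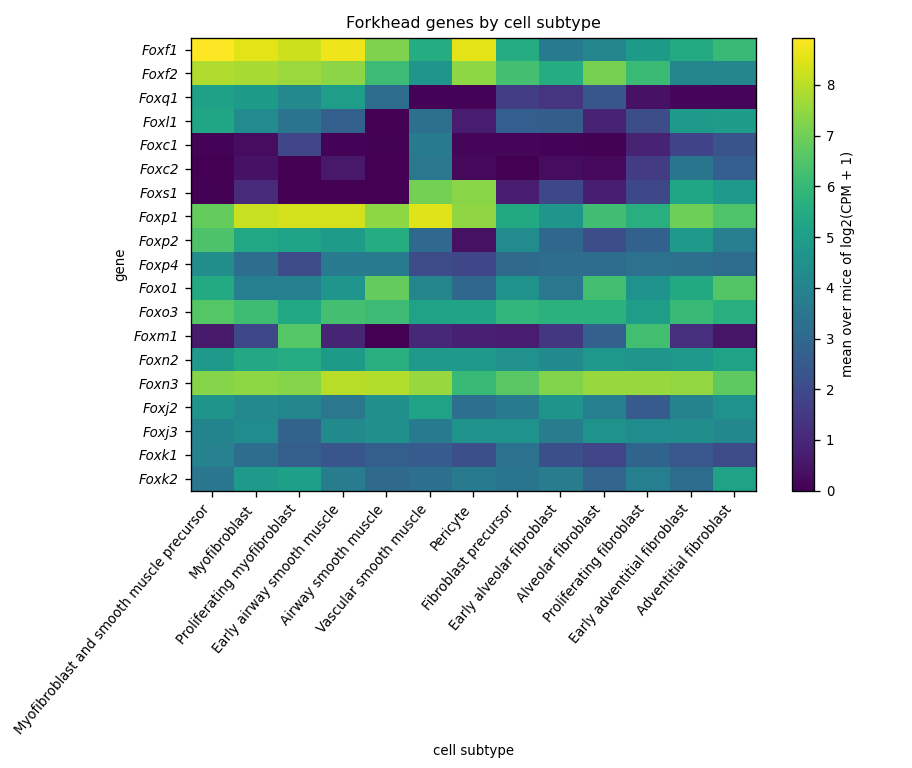
Mean over mice of log2(CPM + 1) for 19 forkhead genes (vertical axis) in the 13 subtypes with at least 10 cells in 2 or more mice (horizontal axis). Foxf1 is brightest in precursors, myofibroblasts, early airway smooth muscle and pericytes, Foxs1 in pericytes and vascular smooth muscle, and Foxm1 in the proliferating subtypes.

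Of the 30 genes, 6 lie in 2 chromosomal clusters. Foxf1 and Foxl1 in the one, and Foxq1 and Foxf2 in the other, had their highest mean in the same subtype, the myofibroblast and smooth muscle precursors, while Foxc2 and Foxc1 had theirs in vascular smooth muscle. The precursors were not particular to the clusters, since Foxo3, Foxp2, Foxp4 and Foxk1, which lie outside them, also had their highest mean there. Over 64 sums of a subtype and mouse, Foxf1 and Foxl1 had a Pearson r of 0.084, and Foxf2 and Foxq1 of 0.554. On chromosome 8, Foxf1 is followed by Foxc2 after 28.0 kb, with the coding gene Mthfsd between them, and Foxc2 by Foxl1 after 9.04 kb. On chromosome 13, Foxq1 is followed by Foxf2 after 64.8 kb and Foxf2 by Foxc1 after 175 kb. All lie on the plus strand in GENCODE M21 on GRCm38.

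Foxf1 was highest in the precursors of myofibroblasts and smooth muscle, in early airway smooth muscle, in myofibroblasts and in pericytes. Its mean was 492 CPM (SD 96.5, n = 2) in the myofibroblast and smooth muscle precursors of E18.5, 423 CPM (SD 87.4, n = 6) in early airway smooth muscle, 410 CPM (SD 159, n = 6) in myofibroblasts and 385 CPM (SD 71.6, n = 8) in pericytes. In alveolar fibroblasts it was 17.7 CPM (SD 11.8, n = 2), and in their early form 26.2 CPM (SD 23.0, n = 8). After thinning every cell to 100000 reads, 60.3% to 91.2% of early airway smooth muscle cells of a mouse had a Foxf1 read, against 0% to 37.3% of early alveolar fibroblasts. The unthinned medians over mice were 82.8% and 22.1%. No mouse's share in the former reached down to the highest of the latter. In pericytes the 8 mice ranged from 231 to 471 CPM, and in vascular smooth muscle, the other cell of the vessel wall, from 1.84 to 203 CPM, so those ranges did not overlap.

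Foxf2, its close relative, had a wider distribution that took in alveolar fibroblasts. Its mean was 234 CPM (SD 29.3, n = 2) in the precursors, 232 CPM (SD 104, n = 6) in myofibroblasts, 204 CPM (SD 102, n = 8) in pericytes and 137 CPM (SD 8.40, n = 2) in alveolar fibroblasts. In alveolar fibroblasts the female and male mouse of P21 had 131 and 143 CPM of Foxf2, and 26.1 and 9.36 CPM of Foxf1. Adventitial fibroblasts, which surround airways and vessels, had 20.6 CPM (SD 17.3, n = 2) of Foxf2 in the later and 19.0 CPM (SD 13.0, n = 8) in the early subtype. Vascular smooth muscle ran from 0 to 375 CPM of Foxf2 over 8 mice, and its mean of 72.3 CPM rested on the male mouse of P21, since the next highest mouse had 67.8 CPM.

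Foxq1, upstream of Foxf2 on the chromosome, had a narrower distribution. Its mean was 34.2 CPM (SD 8.94, n = 2) in the precursors, 32.6 CPM (SD 11.3, n = 6) in early airway smooth muscle and 29.5 CPM (SD 10.5, n = 6) in myofibroblasts. Pericytes, which matched those cells in Foxf1 and Foxf2, had 0 CPM of Foxq1 in 6 of 8 mice and 0.0491 and 0.450 CPM in the other two. Vascular smooth muscle had 0 CPM of Foxq1 in 7 of 8 mice. In 65.7% of its 50-base windows Foxq1 shares sequence with a gene model on the opposite strand, and the strand setting of the counting was not given in the sources used here, so its reads cannot be fully assigned.

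Foxc1 and Foxc2 were highest in vascular smooth muscle, followed by adventitial fibroblasts. Foxf2 was found there too, and at a higher mean than Foxc1. Foxc1 had a mean of 17.5 CPM (SD 14.7, n = 8) in vascular smooth muscle, where the 8 mice ran from 1.35 to 39.6 CPM and 10.5% to 35.7% of cells had a read after thinning (unthinned median 20.8%). In pericytes the 8 mice ran from 0 to 0.180 CPM of Foxc1, below every vascular smooth muscle value. Foxc2 had 13.7 CPM (SD 7.62, n = 8) in vascular smooth muscle and 11.1 CPM (SD 5.54, n = 8) in early adventitial fibroblasts. Foxl1, which marks subepithelial mesenchyme in the gut, had 38.0 CPM (SD 14.0, n = 2) in the precursors, 33.8 CPM (SD 24.4, n = 2) in adventitial fibroblasts and 30.3 CPM (SD 14.8, n = 8) in their early form. No read of Foxl1 was found in the 113 airway smooth muscle cells of P21, which allows a share of up to 2.65% of cells with a read.

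**Figure D2:**
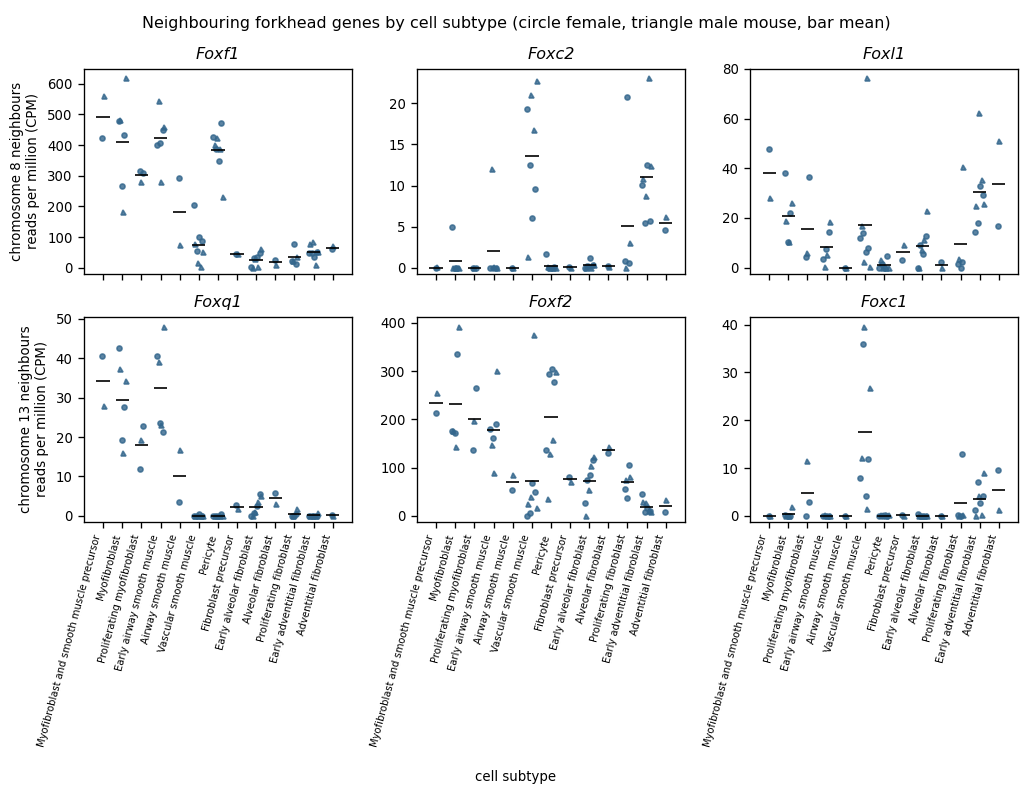
Level of each clustered forkhead gene in CPM (vertical axis, linear from 0) by cell subtype (horizontal axis), 1 point for each mouse with at least 10 cells. In the upper row Foxf1 and Foxl1 have their highest mean in the precursors and Foxc2 in vascular smooth muscle, and in the lower row Foxc1 is high in vascular smooth muscle, where Foxq1 is at or near 0.

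The windows of 250 bases before the annotated start are shown for the neighbours Foxf2 and Foxc1, because they were highest in different subtypes, and for Foxo1, because its level moved with age in the results that follow. Promoters were found in RefSeq's table (GRCm38.p6) for 18 of the 30 members. Capitals mark matches, on either strand, to the GC box GGGCGG (33.0% of all 32536 promoter windows hold it) and the CCAAT box CCAAT (33.8%). Foxf2 lies at chr13:31625566-31625815, Foxc1 at chr13:31806396-31806645 and Foxo1 at chr3:52268087-52268336, all on the plus strand.
Foxf2: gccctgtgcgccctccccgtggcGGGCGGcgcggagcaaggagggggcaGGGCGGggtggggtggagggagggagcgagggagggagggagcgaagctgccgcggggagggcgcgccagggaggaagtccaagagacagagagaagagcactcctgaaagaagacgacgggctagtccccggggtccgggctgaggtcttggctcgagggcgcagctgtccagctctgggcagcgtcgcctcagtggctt
Foxc1: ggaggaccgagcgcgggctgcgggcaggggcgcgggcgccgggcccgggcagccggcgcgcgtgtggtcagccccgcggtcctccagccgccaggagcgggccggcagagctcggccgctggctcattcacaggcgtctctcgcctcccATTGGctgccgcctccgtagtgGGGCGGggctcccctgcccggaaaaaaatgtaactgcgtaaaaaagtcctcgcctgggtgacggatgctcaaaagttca
Foxo1: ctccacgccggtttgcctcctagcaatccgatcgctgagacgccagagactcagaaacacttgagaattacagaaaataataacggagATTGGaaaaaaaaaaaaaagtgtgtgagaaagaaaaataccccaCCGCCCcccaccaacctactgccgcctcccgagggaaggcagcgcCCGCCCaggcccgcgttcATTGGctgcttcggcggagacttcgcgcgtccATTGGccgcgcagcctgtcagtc
The Foxf2 window had 2 GC boxes and 71.6% G and C, and the Foxc1 window 1 GC box, 1 CCAAT box and 70.8% G and C, against a median of 52.4% over all promoters. The Foxo1 window had 2 GC boxes, 3 CCAAT boxes and 56% G and C. No letters of the forkhead core TGTTTAC (3.17% of all windows), the GLI site ACCACCC (3.92%), TATAAA (12.3%) or the cyclic AMP element TGACGTCA (1.56%) were found in the 3 windows on either strand.

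Foxs1 had the widest range between subtypes of the 30 members, from the cells of vessel walls down to the muscle of airways. Its mean was 178 CPM (SD 78.6, n = 8) in pericytes and 159 CPM (SD 95.5, n = 8) in vascular smooth muscle. Pericytes ran from 74.9 to 276 CPM and vascular smooth muscle from 36.7 to 315 CPM, so the vessel-wall subtypes overlapped. After thinning, 19.4% to 45.0% of pericytes and 15.6% to 61.9% of vascular smooth muscle cells of a mouse had a read (unthinned medians 37.9% and 41.3%). In early airway smooth muscle 0 of 286 cells had a Foxs1 read, so that up to 1.05% of cells with a read and a level of up to 0.0108 CPM remain possible. In the airway smooth muscle of P21 0 of 113 cells had one, which allows up to 2.65%, and in proliferating myofibroblasts 0 of 118, which allows up to 2.54%. Such limits cover counting error only, since reads copied from 1 molecule count separately. Adventitial fibroblasts were intermediate, with 44.3 CPM (SD 32.4, n = 8) of Foxs1 in the early and 28.4 CPM (SD 10.3, n = 2) in the later subtype. In early alveolar fibroblasts 7 of 8 mice had at most 10.4 CPM, and the female mouse of E18.5, with 14 such cells, had 56.7 CPM.

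The FoxP genes had distributions of their own. Foxp1 had its 4 highest means at 367 CPM (SD 86.3, n = 8) in vascular smooth muscle, 321 CPM (SD 49.9, n = 6) in early airway smooth muscle, 318 CPM (SD 29.9, n = 3) in proliferating myofibroblasts and 299 CPM (SD 66.7, n = 6) in myofibroblasts. Early alveolar fibroblasts had 32.4 CPM (SD 17.6, n = 8) of Foxp1, and their highest mouse, at 54.1 CPM, lay below the lowest vascular smooth muscle mouse, at 213 CPM. Foxp2 had 86.4 CPM (SD 14.5, n = 2) in the precursors, 45.0 CPM (SD 6.58, n = 2) in airway smooth muscle and 42.7 CPM (SD 16.4, n = 6) in myofibroblasts, against 0.513 CPM (SD 1.12, n = 8) in pericytes. Foxp1, but not Foxp2, was therefore abundant in pericytes, at 184 CPM (SD 80.2, n = 8). Foxp4 had means from 4.48 CPM in proliferating myofibroblasts to 20.6 CPM in the precursors, and in vascular smooth muscle ran from 0 to 33.5 CPM over 8 mice. Foxp3, the factor of regulatory T cells, had 1.52 CPM over the 10 mice, and 23.1% of its 50-base windows lie in other genes, so its reads cannot be assigned with certainty.

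Foxo1 and Foxo3 were present in every subtype with 2 or more mice. Foxo3 varied little, from 43.7 CPM (SD 23.2, n = 3) in proliferating myofibroblasts to 95.3 CPM (SD 22.5, n = 2) in the precursors, a difference smaller than its SD between mice in early airway smooth muscle, at 52.5 CPM, and larger than its SD in the other 12 subtypes with 2 or more mice. Foxo1 had its highest means in 3 subtypes that reached 10 cells a mouse at P21 alone: 123 CPM (SD 74.1, n = 2) in airway smooth muscle, 93.5 CPM (SD 10.2, n = 2) in adventitial and 75.7 CPM (SD 26.6, n = 2) in alveolar fibroblasts. Foxo4 and Foxo6 had 1.10 and 0.294 CPM over the 10 mice.

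Foxm1 followed the authors' proliferating subtypes. It had 97.5 CPM (SD 27.4, n = 3) in proliferating myofibroblasts and 76.6 CPM (SD 20.0, n = 5) in proliferating fibroblasts, and at most 5.96 CPM in the mean of any other subtype with 2 or more mice. After thinning, 45.5% to 58.1% of proliferating myofibroblasts and 35.3% to 75.0% of proliferating fibroblasts of a mouse had a Foxm1 read (unthinned medians 58.8% and 60.7%). The share in fibroblast precursors was 1.20% to 1.50%.

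Foxn3, a checkpoint repressor, and Foxn2, Foxj2, Foxj3, Foxk1 and Foxk2 were broadly distributed. Foxn3 ran from 75.3 CPM (SD 39.1, n = 8) in pericytes to 252 CPM (SD 124, n = 2) in airway smooth muscle. Foxk1 and Foxk2, which repress autophagy genes, had their highest means at 15.8 CPM in the precursors and 44.6 CPM in adventitial fibroblasts, the latter with an SD of 40.9 over 2 mice. Foxj2 was highest in vascular smooth muscle at 63.5 CPM (SD 97.6, n = 8), and the male mouse of P21 alone had 302 CPM there.

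The 13 low members had means over the 10 mice of 2.37 CPM for Foxc2 down to 0.00607 CPM for Foxd4. The epithelial factors were among the lowest, with 0.150 CPM of Foxa1, 0.0756 CPM of Foxa3 and 0.0189 CPM of Foxj1. Foxd1, Foxd2 and Foxr1 had 0.453, 0.378 and 0.0210 CPM. Foxa2 stood apart in 1 mouse: 2283 of its reads came from the male hyperoxia mouse, at 4.23 CPM, against 5 to 88 reads and at most 0.274 CPM in each of the other 9. In that mouse 36 of 551 cells had a Foxa2 read and 26 cells in 6 subtypes had at least 5 reads, while at most 1 cell in any other mouse reached 5 reads. The summed epithelial markers of that mouse were 58.7 CPM, inside the range of the other mice. In its 5 cells with the most Foxa2 reads they summed to 126, 286, 40.9, 65.1 and 114 CPM. Its male hyperoxic fibroblasts had 7.05 CPM of Foxa2 and 161 CPM of epithelial markers, the highest such sum of any subtype. The part of epithelial RNA in the Foxa2 reads was not tested.

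Genes whose levels ran most like a member's are named for the 4 members with the widest range between subtypes, over the 64 sums of a subtype and mouse with at least 10 cells. These correlations are descriptions over sums that share mice and libraries. For Foxs1 they were Ebf1 (Pearson r 0.872), Rflna (0.824) and Agtr1a (0.817). For Foxm1 they were Sgo2a (0.876), Ube2c (0.862) and Cdca3 (0.861), all genes of mitosis. For Foxp2 the highest were Pitpnm2 (0.691), Celf2 (0.685) and Fam69b (0.684), and for Foxl1 Sulf2 (0.674), Csf1 (0.637) and Mecom (0.623). Members were paired with each other only among the 17 with a mean of at least 5 CPM over the mice. Among those the closest pair was Foxp1 and Foxf1 (0.689), followed by Foxf2 and Foxq1 (0.554), and the most opposed pair was Foxq1 and Foxs1 (-0.691). Pairs with a low member, such as Foxc1 and Foxc2, were not taken.

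Age was tested next, on the reads of all cells of a mouse and then within 6 cell classes. In the mesenchymal sort the male mice of the 4 ages shared a sequencing run. The female mice of E18.5 and P1 shared another, and those of P7 and P21 had a run each. For females each step after P1 was therefore also a change of run, and its part in the age results was not tested. A gene passed at an adjusted p under 0.05 in edgeR's quasi-likelihood test with Benjamini-Hochberg adjustment over all genes tested. In all cells together, 4 of 29 members tested passed over E18.5, P1, P7 and P21, where 12.8% of all genes did. They were Foxo1 (edgeR adjusted p = 0.00541), Foxp1 (0.00569), Foxs1 (0.0139) and Foxm1 (0.0371). On leaving out either mouse of E18.5, 1 member passed, Foxo1. In sums over whole mice, fewer cells of a type and less RNA per cell cannot be told apart. Cell numbers also shifted with age. Pericytes, where Foxs1 was highest, were 14 and 14 of 627 and 579 cells in the female and male mice of E18.5. At P21 they were 70 and 75 of 524 and 311 cells. Myofibroblasts, high in Foxp1, numbered 39 and 32 at P1 and 155 and 184 at P7. The part of such shifts in these 4 results was not tested.

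Foxo1 was level until P7 and high at P21. The female and male mice had 30.7 and 24.0 CPM at E18.5, 27.0 and 15.8 CPM at P1, 27.6 and 17.9 CPM at P7 and 69.7 and 104 CPM at P21. Both P21 mice lay above all 8 others, the hyperoxia mice included. From P7 to P21 Foxo1 rose by 2.19 on the log2 scale (SE 0.390, edgeR adjusted p = 0.00819), where 9.97% of all genes passed and 2 of 29 members did. Without the male mouse of P7 the change was 1.89 and no longer passed. In 6.80% of its 50-base windows Foxo1 shares sequence with other gene models, some on the opposite strand, so some of its reads cannot be assigned with certainty.

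Foxm1 was the other member to pass from P7 to P21. It stood at 4.66 and 9.04 CPM at E18.5, 4.53 and 2.75 CPM at P1, 12.7 and 16.1 CPM at P7 and 1.81 and 1.59 CPM at P21 in the female and male mice. It fell by 2.86 on the log2 scale from P7 to P21 (SE 0.613, edgeR adjusted p = 0.0187). The call was lost without either mouse of P7, with changes of -2.999 and -2.72. Of 19 mitotic targets of Foxm1, such as the cyclins Ccnb1 and Ccnb2 and the kinesin Kif20a, 14 fell, where 4.58% of all genes did, and 0 rose at that step, with a median change of -5.27 against 0.029 for all genes. Mki67, a marker of cycling cells, fell by 5.20 (SE 0.429, edgeR adjusted p = 2.08e-04).

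Foxp1 and Foxs1 passed over the 4 ages without a single step passing. Foxp1 stood at 62.1 and 68.2 CPM at E18.5, 102 and 99.0 CPM at P1, 183 and 216 CPM at P7 and 107 and 114 CPM at P21. Its P7 mice were the highest, and no 2 adjacent ages overlapped, yet its steps had edgeR adjusted p of 0.199, 0.130 and 0.102. Foxs1 stood at 9.48 and 9.21 CPM at E18.5, 12.0 and 15.5 CPM at P1, 18.2 and 25.3 CPM at P7 and 31.4 and 29.6 CPM at P21, so each age lay above the one before. Over the first 2 steps 0 of 29 members passed edgeR's test. From E18.5 to P1 1.23% of all genes passed, with 4 members and 12.2% of all genes at an unadjusted p under 0.05, and 1 member and 6.58% of all genes called by DESeq2. From P1 to P7 0.220% of all genes passed, with 6 members and 11.1% of all genes at an unadjusted p under 0.05, and 4 members and 5.51% of all genes called by DESeq2.

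**Figure D3:**
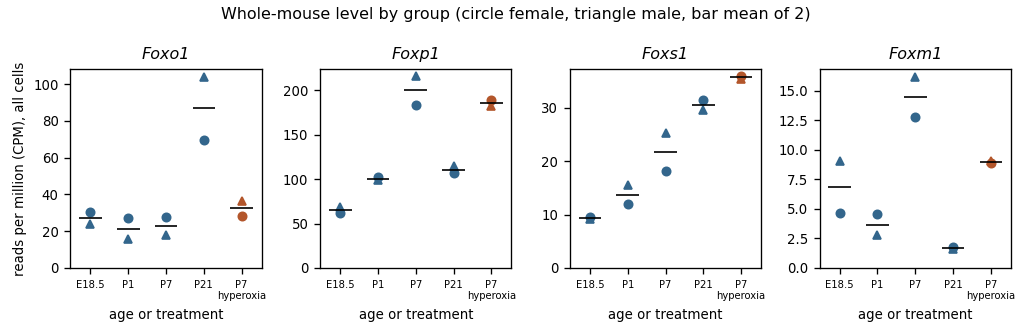
Whole-mouse level in CPM (vertical axes, linear from 0) of the 4 members that passed over age, by group (horizontal axis), 1 point for each mouse and a bar at the mean of 2. Foxo1 is high at P21 alone, Foxp1 and Foxm1 are highest at P7 in normal air, and Foxs1 is higher at each later age.

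Within single classes no member passed edgeR's test over age. The alveolar, adventitial and airway muscle classes join an early and a later subtype, so the mix of subtypes changed with age inside them. In alveolar fibroblasts 0 of 23 members and 0.345% of all genes passed, 2 members and 18.2% of all genes had an unadjusted p under 0.05, and DESeq2 called 8 members and 24.9% of all genes. That count of 0 rose without the female mouse of E18.5, with a minimum of 20 cells a mouse and after thinning. Each of these settings left out that same mouse, which had 14 such cells, and 8 after thinning. They are therefore not independent of each other, and E18.5 then rested on the male mouse alone. The count also rose without the male mouse of E18.5. In adventitial fibroblasts 0 of 24 members and 1.10% of all genes passed, with 2 members and 12.8% of all genes at an unadjusted p under 0.05, and 1 member and 10.1% by DESeq2. Pericytes gave 0 of 18 members and 0.126% of all genes, with 0 members and 6.19% at an unadjusted p under 0.05, and 0 members and 3.74% by DESeq2. Myofibroblasts, between P1 and P7, gave 0 of 19 members and 0.00% of all genes, with 2 members and 8.01% at an unadjusted p under 0.05, and 0 members and 2.43% by DESeq2. Without the female mouse of P1 the myofibroblast count was 2, Foxo1 and Foxs1. In airway smooth muscle 0 of 21 members and 1.33% of all genes passed, with 3 members and 11.2% at an unadjusted p under 0.05, and 2 members and 8.02% by DESeq2. In vascular smooth muscle 0 of 21 members and 0.0644% of all genes passed, with 1 member and 6.02% at an unadjusted p under 0.05, and 0 members and 3.22% by DESeq2. Each class rested on 6 to 10 mice with as few as 14 cells, so a change within a class could be missed.

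Foxo1 was nevertheless higher in both P21 mice than in both P7 mice in each of the 5 classes that had both ages. It was the only one of the 17 members tested in all of them to be so, where 0.747% of all genes were. In alveolar fibroblasts the female and male mice of P7 had 35.5 and 19.3 CPM and those of P21 56.8 and 95.4 CPM. In adventitial fibroblasts they had 66.6 and 25.6 CPM, then 84.2 and 101 CPM, and in pericytes 8.07 and 2.36 CPM, then 42.3 and 34.2 CPM. In airway smooth muscle they had 12.1 and 25.3 CPM, then 68.5 and 232 CPM, a change of 3.22 (SE 0.643, edgeR adjusted p = 0.0550). Vascular smooth muscle had 0.0377 and 3.30 CPM at P7 and 110 and 54.3 CPM at P21. Some of these sums rested on few cells. In the male mouse of P21, 1 cell gave 88.6% of the Foxo1 reads of pericytes, 56.5% of those of vascular smooth muscle and 39.8% of those of airway smooth muscle, and in the female mouse 17.2%, 45.3% and 14.8%. The classes come from the same 4 mice and are not independent of each other. The male P21 mouse had 1529 detected genes a cell at 100000 reads, the lowest median of the 10 mice, and its part in these values was not tested.

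**Figure D4:**
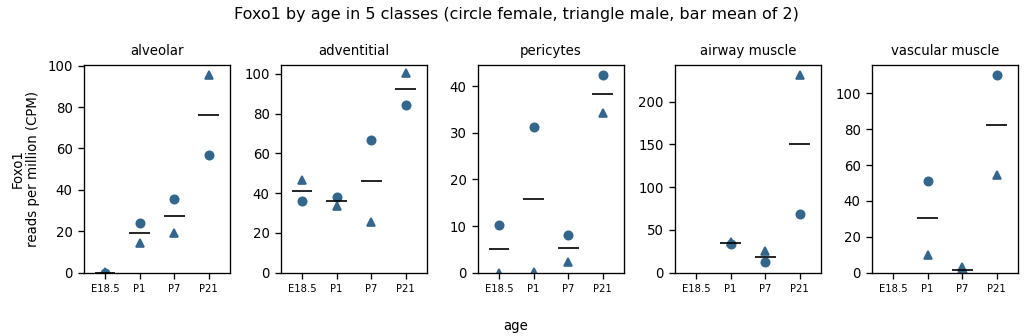
Foxo1 level in CPM (vertical axes, linear from 0, scaled by class) by age in normal air (horizontal axes) in 5 classes, 1 point for each mouse and a bar at the mean of 2. In each class both P21 points lie above both P7 points.

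The step from E18.5 to P1 in alveolar fibroblasts gave 1 of 23 members, Foxo1, where 6.16% of all genes passed. Its values were 0 and 0.221 CPM at E18.5 and 23.8 and 14.1 CPM at P1 (log2 change 6.82, SE 1.37, edgeR adjusted p = 0.0339). The E18.5 sums held only 14 and 24 cells, with a median of 1042 and 1232 detected genes against 2879 and 3001 at P1, and epithelial markers summed to 1082 CPM in the female. The call was lost on leaving out any mouse of P1, P7, P21 or hyperoxia, and kept without either mouse of E18.5, where 2 to 9 members passed. The part of the few detected genes in this step was not tested. At the same age the fibroblast precursors, with 22.6 CPM (SD 5.58, n = 2) of Foxo1, were not low.

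FoxO targets were followed as a list. From P7 to P21, 3 of 18 FoxO targets rose and 0 fell, where 5.39% of all genes rose and 4.58% fell, with a median change of 0.66 against 0.029 for all genes. They were the repressor Bcl6 (4.26, SE 0.651, edgeR adjusted p = 0.00378), the cell cycle inhibitor Cdkn1a (2.995, SE 0.354, edgeR adjusted p = 9.65e-04) and the thioredoxin inhibitor Txnip (1.63, SE 0.376, edgeR adjusted p = 0.0248). Cdkn1a and Txnip have other regulators too, p53 among them for Cdkn1a. Hhip, a decoy receptor induced by the Hedgehog pathway, stood at 335 and 326 CPM at P7 and at 660 and 951 CPM at P21. Gli1, the usual readout of the pathway, stood at 16.4 and 9.82 CPM at P7 and 16.3 and 10.1 CPM at P21. Foxf1 and Foxf2 were not among the members that passed, with 187 and 143 CPM of Foxf1 at P7 and 126 and 87.4 CPM at P21.

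Hyperoxia was compared with normal air at P7. In all cells 0 of 29 members passed edgeR's test, where 0.243% of all genes did. An unadjusted p under 0.05 was reached by 5 members, Foxo3, Foxn2, Foxp4, Foxa2 and Foxo6, and by 12.3% of all genes. DESeq2 called 3 members, Foxo3, Foxn2 and Foxa2, and 4.57% of all genes. Within each of 5 classes edgeR's test passed 0 members and 0.00% of all genes. In alveolar fibroblasts 1 of 23 members and 2.68% of all genes had an unadjusted p under 0.05, and DESeq2 called 1 member and 1.53% of all genes. In adventitial fibroblasts these were 3 of 24 members and 8.01%, and 2 members and 2.49% by DESeq2. In myofibroblasts they were 3 of 19 members and 6.33%, and 2 members and 2.82% by DESeq2. In airway smooth muscle they were 2 of 21 members and 3.10%, and 0 members and 0.934% by DESeq2, and in vascular smooth muscle 0 of 21 members and 2.57%, and 0 members and 1.73% by DESeq2. With 2 mice against 2 and no gene passing in any class, these counts do not show that the members were unaffected. Pericytes had under 10 cells in each hyperoxia mouse and were not compared.

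Foxo3, the FoxO factor with the highest level, stood higher in hyperoxia in each class compared. Whole mice had 39.7 and 46.7 CPM in normal air and 79.7 and 108 CPM in hyperoxia (log2 change 1.08, SE 0.260, edgeR adjusted p = 0.145). It was higher in both hyperoxia mice in each of 5 classes, as was Foxp4, so that 2 of 17 members were, where 2.16% of all genes were. In alveolar fibroblasts Foxo3 had 27.9 and 42.2 CPM in air against 75.8 and 80.4 CPM in hyperoxia, and in adventitial fibroblasts 53.1 and 30.4 against 77.4 and 102 CPM. In myofibroblasts it had 49.0 and 62.1 against 100.4 and 155 CPM, in airway smooth muscle 61.7 and 63.9 against 110.2 and 180.2 CPM, and in vascular smooth muscle 21.3 and 25.5 against 28.9 and 69.3 CPM. After thinning, a Foxo3 read was found in 29.0% and 31.2% of early alveolar fibroblasts in air and 60.8% and 62.7% in hyperoxia (unthinned 44.5% and 42.9%, then 66.5% and 74.4%). In myofibroblasts the shares were 34.2% and 43.3%, then 82.8% and 95.6% (unthinned 51.0% and 61.4%, then 87.9% and 95.6%).

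Detection differed between the same mice beyond the forkhead genes. At 100000 reads a cell, the median number of detected genes was 2433 and 2349 at P7 in normal air and 3803 and 4515 in hyperoxia. Shares of cells with a read move with that number, and its part in the Foxo3 values was not tested. In the fit over all cells the median change of all genes in hyperoxia was 0.0025. The scaling of that fit holds most genes near 0, so this value cannot speak to the difference in detection.

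Foxn2 and Foxp4 had differences of the same sign as Foxo3. Foxn2 had 19.3 and 26.1 CPM in normal air and 51.5 and 52.9 CPM in hyperoxia (log2 change 1.18, SE 0.288, edgeR adjusted p = 0.148). It was higher in both hyperoxia mice in 4 of 5 classes, as were Foxf1 and Foxp1. The share of all genes that did so in 4 of 5 classes was not taken. In airway smooth muscle Foxn2 had 11.9 and 13.1 CPM against 44.6 and 78.8 CPM. In vascular smooth muscle its groups overlapped, with 39.3 and 12.1 CPM against 46.1 and 38.4 CPM. Foxp4 had 6.34 and 5.16 CPM in air and 11.8 and 16.5 CPM in hyperoxia over whole mice (log2 change 1.26, SE 0.467, edgeR adjusted p = 0.321). Foxp4 was at 2.42 and 0.148 CPM in vascular smooth muscle in air and at 25.5 and 33.5 CPM in hyperoxia. Foxo1, whose level set P21 apart, had 27.6 and 17.9 CPM in air and 28.5 and 36.6 CPM in hyperoxia, with the female mice nearly level (log2 change 0.50, SE 0.374, edgeR adjusted p = 0.617).

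**Figure D5:**
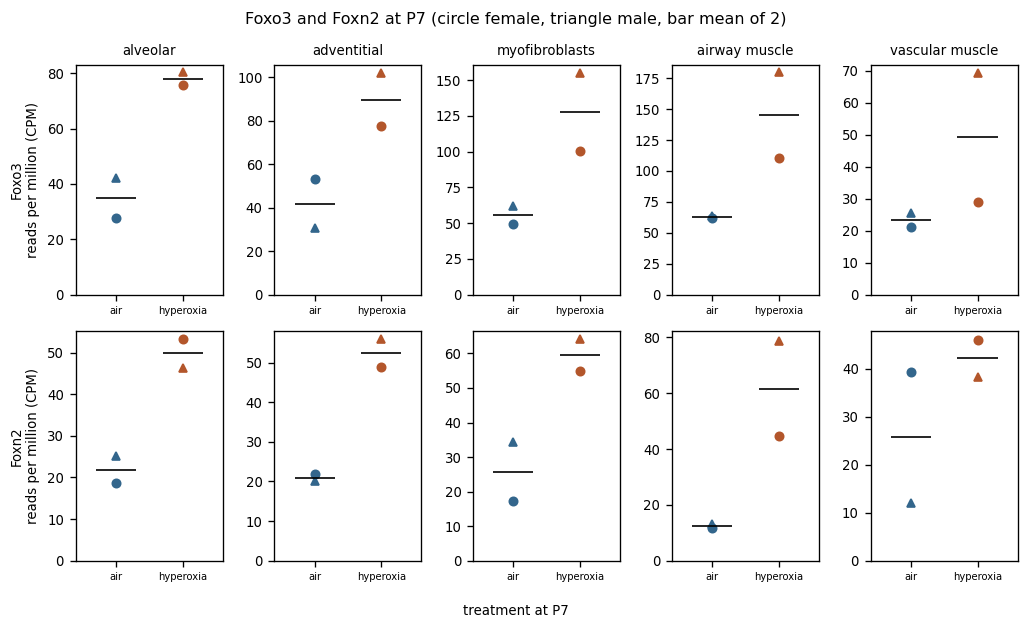
Level of Foxo3 (upper row) and Foxn2 (lower row) in CPM (vertical axes, linear from 0, scaled by panel) at P7 in normal air and hyperoxia (horizontal axes) in 5 classes, 1 point for each mouse and a bar at the mean of 2. The groups are apart in every panel except Foxn2 in vascular muscle.

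Foxs1 and the FoxF genes were read by class. Over whole mice Foxs1 had 18.2 and 25.3 CPM in normal air and 35.9 and 35.4 CPM in hyperoxia (log2 change 0.69, SE 0.321, edgeR adjusted p = 0.418). Foxs1 in adventitial fibroblasts had 22.7 and 27.0 CPM in normal air and 85.9 and 105 CPM in hyperoxia (log2 change 1.76, SE 0.543, edgeR adjusted p = 0.621). Mesothelial markers summed to 218 and 0.0652 CPM in the early adventitial fibroblasts of P7 in air and to 576 and 654 CPM in hyperoxia. In the same cells endothelial markers summed to 2.82 and 5.64 CPM in air and 33.8 and 99.2 CPM in hyperoxia, and immune markers to 0.104 and 7.87 CPM and then 18.6 and 17.5 CPM. The part of these other cell types in the Foxs1 difference was not tested. In myofibroblasts Foxf1 had 266 and 183 CPM in air and 432 and 618 CPM in hyperoxia (log2 change 1.18, SE 0.363, edgeR adjusted p = 0.686). Foxf2 had 172 and 142 CPM there in air and 335 and 392 CPM in hyperoxia (log2 change 1.17, SE 0.313, edgeR adjusted p = 0.598). The groups of both genes were apart in myofibroblasts, which numbered 155 and 184 cells in air and 58 and 45 in hyperoxia. Over whole mice Foxf1 overlapped, at 187 and 143 CPM against 160 and 131 CPM.

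Of the FoxO targets 1 of 18 rose in hyperoxia, where 0.231% of all genes did. It was Cdkn1a, with a log2 change of 3.83 (SE 0.365, edgeR adjusted p = 0.00749), with 90.5 and 81.9 CPM in air and 1322 and 1195 CPM in hyperoxia. The median of the list was 0.20, against 0.0025 for all genes. Within each class compared 0 FoxO targets passed, where 0.00% of all genes did, with list medians from -0.025 to 0.44. Cdkn1a also has p53 among its regulators, and the part of FoxO factors in its rise was not tested. Among Foxm1's mitotic targets 0 of 19 passed edgeR's test, with a median of -0.40. Whether hyperoxia acted differently by class was tested as an interaction at P7 between early alveolar fibroblasts and either early adventitial fibroblasts or myofibroblasts. Against adventitial fibroblasts 0 of 25 members and 0.00% of all genes passed edgeR's test, with 1 member and 7.47% of all genes at an unadjusted p under 0.05. Against myofibroblasts 0 of 25 members and 0.0437% of all genes passed, with 3 members and 5.13% of all genes at an unadjusted p under 0.05. The 1 between adventitial and alveolar fibroblasts was Foxj3, at -3.73 (SE 0.706, edgeR adjusted p = 0.214). In adventitial fibroblasts Foxj3 had 54.7 and 108 CPM in air and 11.3 and 17.1 CPM in hyperoxia, while in alveolar fibroblasts it had 14.0 and 7.30 against 18.8 and 31.5 CPM.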

How the data were processed

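Mesenchymal cells of 10 mice were sorted and sequenced from plates with Tn5 transposase, per the labels' protocols. The deposited values were whole-number read counts per gene and cell, which the authors had not normalized. The submitters' processing notes list STAR 2.5.2b, HTSeq 0.10 and the human build GRCh38 for these mouse samples. The mouse build, the annotation, the strand setting and any filters were not given in the sources used here, and no molecular identifiers are named, so values count reads.

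Every column matched 1 labelled cell, and groups and subtypes were taken from the labels. No doublet caller was run. Reads were summed by mouse and class (at least 10 cells), and tested two-sided with edgeR 4.0.16 in R 4.3.3 (TMM, filterByExpr, quasi-likelihood test, terms for sex and group, all groups in each fit). Adjusted p is by Benjamini-Hochberg over all genes tested, and passed means under 0.05. Early and later alveolar, adventitial and airway muscle subtypes were joined in a class, without the proliferating ones. The difference of hyperoxia effects used the mouse as a block. The tests had been tried on simulated data. DESeq2 1.42.0, other scalings and filters, thinning and leaving out each mouse were alternatives. CPM of levels are reads per 1000000 of a sum's total, and a log2 level uses a pseudocount of 1. Shares were taken after thinning to 100000 reads, which left out 168 cells, and limits at 0 are those of 3 counts.

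Exon lengths and neighbours came from GENCODE M21 (GRCm38), where all 30 symbols matched, and promoters from RefSeq (GRCm38.p6). Members with a mean of at least 5 CPM, called in a comparison or at 20 CPM or more in a subtype were named with values. Counts over a list of Hedgehog genes are not reported here. The members, lists, rules and tests were chosen with earlier results of these data known. Nothing in the labels says that mice of 1 group came from separate litters, so p-values measure only the spread between these mice.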

Additional observations from a re-analysis of the deposited data

Results flagged for a closer look

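Some members stood on opposite sides in different classes, with both mice of 1 group above both of the other in each class named. The values are log2 ratios of group means of CPM + 1, and 21 pairs of a member and a comparison were looked at. The share of all genes with such opposite separations was not taken, so these cases are a description and cannot be set against it. In hyperoxia against air, Foxj3 was lower in myofibroblasts (-0.46), adventitial fibroblasts (-2.44) and airway smooth muscle (-1.76) and higher in alveolar fibroblasts (1.17). Its difference between adventitial and alveolar fibroblasts had an edgeR adjusted p of 0.214, and that between myofibroblasts and alveolar fibroblasts 0.948.

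Foxl1 was higher in hyperoxia in myofibroblasts (1.16), airway smooth muscle (1.23) and alveolar fibroblasts (1.01) and lower in adventitial fibroblasts (-0.39), with an edgeR adjusted p of 0.711 for the adventitial against the alveolar difference. Foxm1 was higher in adventitial fibroblasts (1.47) and lower in airway smooth muscle (-2.32), and Foxn3 was lower in myofibroblasts (-0.28) and higher in vascular smooth muscle (0.55). In adventitial fibroblasts the nearest Foxm1 values were 2.64 CPM in air and 2.64 CPM in hyperoxia, so that separation was slight. Between those classes the difference was not tested.

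From P7 to P21 Foxp1 was lower in pericytes (-0.70), vascular smooth muscle (-0.46) and airway smooth muscle (-0.89) and higher in alveolar fibroblasts (1.60). In alveolar fibroblasts its CPM were 29.2 and 19.9 at P7 and 57.7 and 94.6 at P21, and in airway smooth muscle 308 and 343 at P7 and 175 and 174 at P21. That difference between classes was not tested.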

How the results depend on the processing

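Over 17 counts of members that passed, 254 of 291 alternatives stayed within 1.5 times the reported count. Of 330 alternatives for 18 log2 changes, 306 kept direction and call. Most of those counts were 0 and most of those changes had not passed, so most alternatives only repeated that. Among changes that had passed, Foxo1 from E18.5 to P1 in alveolar fibroblasts lost its call in 9 of 18 alternatives. From P7 to P21 in all cells, Foxm1 lost its call in 3 of 18 and Foxo1 in 1 of 18. The cause of the moves that follow was not tested. Mice share only accession-order numbers, so sex was the block. Without that replicate block the age counts were 7 in all cells and 1 in alveolar fibroblasts, and no other count moved by over 1.5 times. DESeq2 passed 11 members over age in all cells, 8 in alveolar, 1 in adventitial fibroblasts and 2 in airway smooth muscle, and in hyperoxia 3 in all cells, 1 in alveolar fibroblasts, 2 in adventitial fibroblasts and 2 in myofibroblasts. By step DESeq2 passed 1 (E18.5 to P1), 4 (P1 to P7) and 7 (P7 to P21) in all cells, and 8 for E18.5 to P1 in alveolar fibroblasts. Shares of all genes are not given for its counts of 11 and 7, for this alveolar step or for settings other than DESeq2. Those counts therefore cannot be set against the share of all genes. In alveolar fibroblasts a minimum of 20 cells and thinning both left out the female mouse of E18.5. Both raised the counts there over age and for E18.5 to P1. With only the groups compared, P7 to P21 gave 1 and the alveolar step 0. Leaving out each mouse gave 1 to 5 over age in all cells, 0 to 7 in alveolar fibroblasts and 0 to 2 in myofibroblasts (2 without the female of P1). It gave 0 to 3 for P7 to P21 (1 without the female and 0 without the male of P7) and 0 to 9 for the alveolar step. Foxf2 in hyperoxia, all cells, turned to -0.065 without the male hyperoxia mouse and was 0.26 without the female. Chosen after seeing the data, leaving out both E18.5 mice gave 0 members over age in alveolar fibroblasts, and leaving out the fibroblasts labelled male hyperoxic gave 0 in hyperoxia. Averaging over cells instead of summing reads kept the highest subtype of 12 of 17 members. Depth limits the low members, whose reads came from as few as 21 cells.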
